A study of Mus musculus with 8 samples.

Results

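Type I interferon response genes were described in microglia, the resident macrophages of the brain, from male 5xFAD mice exposed to ethanol or saline. The set was 36 named genes that interferon is known to induce, taken by symbol, and all 36 were among the 56832 rows of the deposited table. Of these, 34 reached a mean of 10 normalized counts over the 8 libraries, the minimum for testing, which 14428 genes of the table passed. A normalized count is a read count divided by a size factor that evens out sequencing depth.

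Both groups were young adult males carrying the 5xFAD transgenes, which are known to drive mutant human amyloid precursor protein and presenilin in neurons through the Thy1 promoter. The ethanol group received 3 g/kg ethanol as a 20% solution by intraperitoneal injection, on 5 days a week for 4 weeks, and the saline group received saline on the same schedule. A withdrawal of 2 weeks without injections followed in both. The comparison addresses whether microglia of these mice still differ in transcription after repeated ethanol and a withdrawal. Each group had 4 libraries, numbered 1 to 4 by their titles, and no group without the transgenes was part of the comparison. The titles do not say whether each library came from its own mouse, so a p-value here measures the spread between libraries, part of which may be technical.

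Type I interferons bind the receptor pair Ifnar1 and Ifnar2, and the kinases Jak1 and Tyk2 then phosphorylate Stat2 and other transcription factors. Together with Irf9, Stat2 is part of a complex that binds interferon-stimulated response elements, short DNA elements near the start of many antiviral genes. The induced proteins sense viral RNA and DNA, block viral entry, replication and release, and include Irf7, which feeds back on interferon production. In amyloid models a small share of microglia is known to carry a high interferon signature, and bulk RNA averages such cells with all others.

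The 8 libraries held 14271351 to 17231301 reads assigned to genes. Microglial markers were abundant in each of them. The 12 markers of this list made up 5.55% to 5.8% of the normalized counts in ethanol libraries and 5.27% to 5.57% in saline libraries, and all 12 were detected. The 36 interferon response genes together made up 0.0746%, 0.0828%, 0.115% and 0.1% in ethanol libraries 1 to 4, against 0.0877%, 0.0829%, 0.0925% and 0.0833% in saline libraries 1 to 4. Over all 14428 genes limma called 0 between ethanol and saline (percent called 0 at an adjusted p under 0.05), and 524 (3.63%) had an unadjusted p under 0.05. The count models edgeR and DESeq2 also called 0 genes. At an unadjusted p under 0.05, edgeR had 495 of 14428 genes (3.43%) and DESeq2, run with no filter on low values, 777 of 26812 (2.9%).

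The core of the interferon-stimulated response element was looked for in the promoters of the members. Promoter windows of 300 bases, from 250 before to 50 after an annotated transcript start, were matched by symbol for 26 of the 36 members in the RefSeq table for build GRCm38.p6. The other 10 were Oas2, Parp14, Usp18, Ifi204, Dhx58, Ifi27l2a, Zbp1, Rtp4, Mx2 and Mx1. The core of the element, GAAA followed by any 2 bases and another GAAA, was searched on both strands. It was present for 16 of these 26 genes (61.5%), against 1079 of 27025 genes in the whole table (3.99%). A second list of 61 other interferon-induced genes held the core in 27 of 52 matched genes (51.9%). TTCNNNGAA, the core of the gamma-activated site, was also searched on both strands and was present in 5 of the 26 members (19.2%) and in 9.55% of all genes. The 2 motifs shared bases in 2 members and in 23 genes of the whole table. A match describes the letters in the window and is no evidence of binding in these cells.

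The promoters of Isg15, which holds more cores than any other member matched, and of the copied pair Ifit3 and Ifit3b are shown to let the element and the likeness of the copies be seen. The 250 bases before the transcript start are written 5′ to 3′ on the strand of the gene, with each core or its reverse complement in capitals.
Isg15 (chr4:156200819-156201068, minus strand): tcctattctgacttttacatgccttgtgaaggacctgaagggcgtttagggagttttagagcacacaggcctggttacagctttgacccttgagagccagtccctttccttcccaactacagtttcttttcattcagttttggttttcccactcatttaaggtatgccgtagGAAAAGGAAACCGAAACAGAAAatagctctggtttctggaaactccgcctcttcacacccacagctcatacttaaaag
Ifit3 (chr19:34583279-34583528, plus strand): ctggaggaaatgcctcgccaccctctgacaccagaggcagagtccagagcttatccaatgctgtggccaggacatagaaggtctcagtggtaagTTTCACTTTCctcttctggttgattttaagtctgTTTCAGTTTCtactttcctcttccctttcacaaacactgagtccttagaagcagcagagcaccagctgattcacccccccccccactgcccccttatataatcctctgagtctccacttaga
Ifit3b (chr19:34607707-34607956, plus strand): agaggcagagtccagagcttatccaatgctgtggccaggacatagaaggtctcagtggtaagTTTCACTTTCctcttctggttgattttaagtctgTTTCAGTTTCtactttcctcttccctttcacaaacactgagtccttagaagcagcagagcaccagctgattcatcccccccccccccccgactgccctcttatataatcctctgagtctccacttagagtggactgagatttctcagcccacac

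Isg15 had 3 overlapping cores, the first starting 78 bases before the start. Ifit3 and Ifit3b are neighbouring copies, and their 300-base windows were identical at 258 of 260 aligned bases (99.2%), with 80 gap positions. Both carry the same pair of cores, at 156 and 122 bases before the start in Ifit3 and at 188 and 154 in Ifit3b. Reads of such close copies may have been divided between them or left out in counting, so their separate values are uncertain. Shorter stretches, with 15 bases on either side of a core, are shown for 2 genes that moved with the rest of the set from library to library (Bst2 and Slfn5) and for 2 that did not (Ifit1 and Stat2).
Bst2 (chr8:71537578-71537617, minus strand): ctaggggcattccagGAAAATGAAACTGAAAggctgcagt
Slfn5 (chr11:82951932-82951971, plus strand): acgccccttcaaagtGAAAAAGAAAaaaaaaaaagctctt
Ifit1 (chr19:34640770-34640809, plus strand): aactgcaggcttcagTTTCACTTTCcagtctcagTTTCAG
Stat2 (chr10:128270261-128270300, plus strand): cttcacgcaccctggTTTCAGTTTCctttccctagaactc

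The cores started 130, 155, 104 and 222 bases before the transcript start in Bst2, Slfn5, Ifit1 and Stat2. Bst2 has 2 overlapping cores in the stretch, and a second core of Ifit1, 85 bases before its start, is only entered by it.

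The members differed widely in level. Per kilobase of exon, which allows genes of different length to be set side by side, Bst2 was the highest at a mean of 1390 normalized counts per kb in ethanol and 1330 in saline libraries. It encodes tetherin, which holds budding virus at the cell surface. Slfn2 followed with 677 and 577 per kb, Ifi35 with 563 and 568, and Ifitm3 with 514 and 422, each given for ethanol and then saline. At the low end, Rsad2 had 10.3 per kb in ethanol and 7 in saline libraries, Oas2 had 10.7 and 6.03, and Cxcl10 had 5.77 and 6.90. The 2 members below the minimum for testing were Oas3 and Ifi44. Oas3 had 0, 12.03, 1.003 and 16.5 normalized counts in ethanol libraries 1 to 4, against 6.47, 9.65, 3.06 and 0 in saline libraries 1 to 4. Ifi44 was represented by 2 reads in ethanol library 2 and by 0 reads in the other 7 libraries.

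None of these genes passed the test between ethanol and saline microglia. Of the 34 tested members 0 passed in limma at a Benjamini-Hochberg adjusted p under 0.05, where the smallest adjusted p was 0.997, and 0 passed in edgeR or DESeq2. One member, Mx2, had an unadjusted p under 0.05, which is near the share of 3.63% over all genes. For 0 members did all ethanol libraries lie above all saline libraries (1.12% of all genes), and for 0 did they all lie below (1.2% of all genes). The estimates were positive for 26 of the 34 members (76.5%, against 48.8% of all genes) and negative for 8. Their median log2 fold change was 0.16, against -0.01 over all genes tested. Between 16 and 28 members were positive when 1 library was left out. Many members moved together across libraries, so these signs are not 34 separate results. In bulk RNA a change in the number of interferon-responding cells and a change in RNA per cell cannot be told apart. The intervals excluded a change of 1.5-fold or more for 9 members, of 2-fold or more for 21 and of 4-fold or more for 32, so for the other 13 a 2-fold change in at least 1 direction lay within the interval. Over all genes the intervals excluded 1.5-fold for 56.2% and 2-fold for 73.1%.

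**Figure D1:**
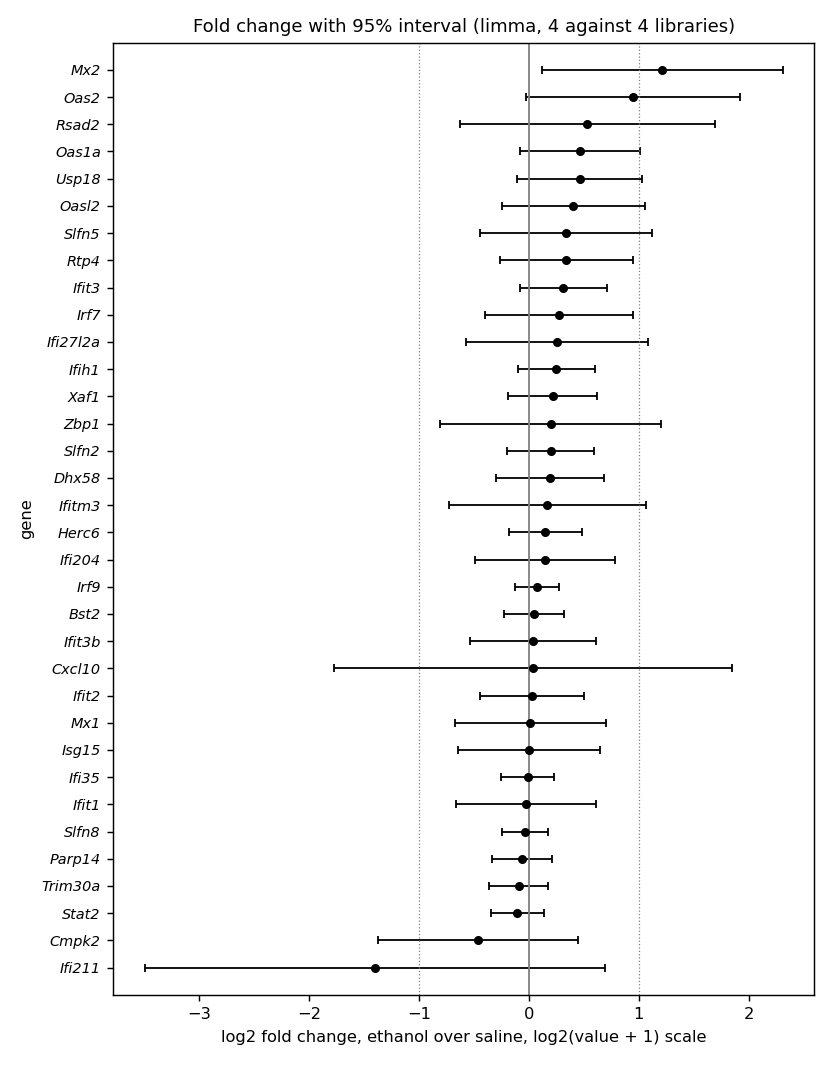
Log2 fold change of each tested member, ethanol over saline, on the log2(value + 1) scale with its 95% interval from limma, 4 libraries against 4. Points are estimates, bars are intervals, and dotted lines mark a 2-fold change. Only the interval of Mx2 leaves out 0, with a fold of 2.32 (1.09 to 4.95), and its adjusted p was 0.997.

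Of the 3 transcription factors of the pathway, Irf9 and Stat2 were steady and Irf7 was not. Irf9, the DNA-binding part of the complex that it forms with Stat2, had 1284, 1586, 1441 and 1587 normalized counts in ethanol libraries 1 to 4, against 1303, 1401, 1437 and 1449.8 in saline libraries 1 to 4. Its fold was 1.05 (95% interval 0.916 to 1.21). Stat2 had 839.7, 917, 948 and 971 normalized counts in ethanol libraries 1 to 4, against 1161, 982, 1024 and 820.3 in saline libraries 1 to 4. The groups overlapped for both genes, and Stat2 had a fold of 0.928 (95% interval 0.785 to 1.096), which excludes a 1.5-fold change. Irf7, which drives late interferon production and is itself induced, had 99.9, 203, 390.1 and 209.9 normalized counts in ethanol libraries 1 to 4, against 174, 115, 226 and 173 in saline libraries 1 to 4. Ethanol library 3 was the highest and ethanol library 1 the lowest of the 8, so both extremes of Irf7 were in the ethanol group.

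Among nucleic acid sensors, Ifih1, which encodes the long double-stranded RNA sensor MDA5, had 423, 467, 463 and 553 normalized counts in ethanol libraries 1 to 4, against 344, 350.3, 370.1 and 570.5 in saline libraries 1 to 4. All ethanol libraries lay above saline libraries 1 to 3, and saline library 4 was the highest of all. Its fold was 1.19 (95% interval 0.931 to 1.51). Dhx58, encoding the related helicase LGP2, averaged 215 ± 53.97 in ethanol and 191 ± 58.1 in saline libraries (SD, n = 4 each). Zbp1, a sensor of left-handed nucleic acid that can trigger necroptosis, averaged 51.5 ± 19.3 in ethanol and 50.6 ± 37.7 in saline libraries, and saline library 3 was its highest with 104. Ifi204 and Ifi211 belong to the p200 family of DNA-binding proteins, whose members are close copies of each other. Ifi204 averaged 141 ± 52.3 in ethanol and 126 ± 37.3 in saline libraries. Ifi211 was near the detection limit, with 4.35, 0, 20.1 and 9.26 normalized counts in ethanol libraries 1 to 4, against 5.55, 43.4, 33.6 and 4.54 in saline libraries 1 to 4. It had the largest spread within groups of all tested members, an SD of 1.73 on the log2 scale. Its fold was 0.379 (95% interval 0.0889 to 1.62), an interval that spans changes in both directions. The log2 fold change of Ifi211 was -0.55 without ethanol library 2, which held 0 reads, and -2.02 without ethanol library 3, against -1.399 over all 8 libraries.

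The IFIT proteins bind viral RNA ends and limit its translation. Ifit2 had 282, 359, 554 and 461 normalized counts in ethanol libraries 1 to 4, against 359.7, 263, 479 and 530.5 in saline libraries 1 to 4. Ifit3 had 249.9, 432, 461 and 364 normalized counts in ethanol libraries 1 to 4, against 284, 252, 337 and 315 in saline libraries 1 to 4, a fold of 1.24 (95% interval 0.944 to 1.63). In both genes ethanol library 3 was the highest, and the groups overlapped. Ifit3b averaged 139 ± 52.8 in ethanol and 129 ± 22.9 in saline libraries (SD, n = 4 each) and Ifit1 averaged 99.99 ± 31.03 in ethanol and 101 ± 30.8 in saline libraries. Ethanol library 4 was the lowest of all for Ifit1 at 57.6, while in the other 3 genes it was among the 4 highest libraries.

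The oligoadenylate synthetases make the messenger that activates RNase L, which cuts viral and cellular RNA, while Oasl2 is a related protein. All 3 tested genes of this family had positive estimates. Oas2 had 56.5, 28.1, 50.1 and 56.6 normalized counts in ethanol libraries 1 to 4, against 21.3, 52.1, 12.2 and 21.8 in saline libraries 1 to 4. Its fold was 1.93 (95% interval 0.983 to 3.78), with an unadjusted limma p of 0.0555, and saline library 2 lay within the ethanol range. Oas1a had 118, 93.2, 184 and 161 normalized counts in ethanol libraries 1 to 4, against 85.99, 79.1, 114 and 114 in saline libraries 1 to 4. The fold of Oas1a was 1.38 (95% interval 0.947 to 2.02), and ethanol library 2 lay below saline libraries 3 and 4. Oasl2 had 102, 128, 273 and 283 normalized counts in ethanol libraries 1 to 4, against 155, 165, 132 and 97.2 in saline libraries 1 to 4. Ethanol libraries 3 and 4 stood above the other 6, while ethanol libraries 1 and 2 lay among the saline values.

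Isg15 encodes a ubiquitin-like protein that is attached to other proteins, Herc6 is the main ligase for it in mice, and Usp18 removes it and also restrains the receptor. Isg15 had 133, 115, 354 and 175 normalized counts in ethanol libraries 1 to 4, against 157, 145, 270.1 and 154 in saline libraries 1 to 4. The means were nearly equal, 194 ± 109 in ethanol and 181 ± 59.4 in saline libraries (SD, n = 4 each), and library 3 was the highest of its group in both. Herc6 had 528, 450.1, 763 and 661 normalized counts in ethanol libraries 1 to 4, against 492, 495, 519 and 625 in saline libraries 1 to 4. Usp18 had 192, 149, 366 and 250.03 normalized counts in ethanol libraries 1 to 4, against 133, 124, 242 and 182 in saline libraries 1 to 4. Usp18 had a fold of 1.38 (95% interval 0.927 to 2.04), and only ethanol libraries 3 and 4 exceeded all saline libraries.

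Of the factors that act on virus entry, replication and release, Bst2 had 1015, 1064, 1435 and 1491 normalized counts in ethanol libraries 1 to 4, against 1159.5, 1183, 1371 and 1073 in saline libraries 1 to 4. Its groups overlapped and its fold was 1.03 (95% interval 0.855 to 1.25). Mx2, a dynamin-like GTPase, had 49.97, 42.1, 98.3 and 118 normalized counts in ethanol libraries 1 to 4, against 47.2, 45.4, 42.8 and 8.18 in saline libraries 1 to 4. Ethanol libraries 3 and 4 were high, ethanol libraries 1 and 2 were close to saline libraries 1 to 3, and saline library 4 stood far below the rest. Its fold was 2.32 (95% interval 1.09 to 4.95). The log2 fold change of Mx2 was 0.97 without ethanol library 4 and 0.63 without saline library 4, against 1.21 over all 8 libraries. Mx1, the related nuclear protein, averaged 74.97 ± 25.4 in ethanol and 73.9 ± 23.4 in saline libraries (SD, n = 4 each) with a fold of 1.01 (95% interval 0.625 to 1.62). Ifitm3, which blocks fusion of virus with endosomes, spanned a wide range, with 98.9, 301, 547 and 447 normalized counts in ethanol libraries 1 to 4, against 141, 228, 475 and 301 in saline libraries 1 to 4. Library 1 was the lowest and library 3 the highest of its group in both ethanol and saline. Rsad2, or viperin, makes a chain-terminating nucleotide, and Cmpk2 next to it supplies the substrate. Rsad2 had 44.5, 27.1, 88.2 and 19.6 normalized counts in ethanol libraries 1 to 4, against 9.25, 47.3, 27.5 and 37.2 in saline libraries 1 to 4. Cmpk2 had 87.99, 28.1, 44.1 and 110.1 normalized counts in ethanol libraries 1 to 4, against 77.7, 79.1, 157 and 46.3 in saline libraries 1 to 4. Their estimates went in opposite directions, with folds of 1.44 (95% interval 0.646 to 3.22) and 0.724 (95% interval 0.385 to 1.36), and neither interval excluded 1.

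The Schlafen genes are interferon-inducible regulators of cell growth and RNA, and their copies lie in a cluster. Slfn8 was steady, with 1197, 1138, 1306 and 1288 normalized counts in ethanol libraries 1 to 4, against 1418, 1286, 1258 and 1096 in saline libraries 1 to 4, a fold of 0.977 (95% interval 0.844 to 1.13). Slfn2 had 730.01, 949, 1335 and 1489 normalized counts in ethanol libraries 1 to 4, against 936, 885, 1238 and 779 in saline libraries 1 to 4, and Slfn5 had 69.5, 96.2, 258 and 222 in the ethanol libraries and 147, 75.3, 147 and 91.7 in the saline libraries. Ethanol libraries 3 and 4 were the 2 highest for both Slfn2 and Slfn5, and ethanol library 1 was the lowest.

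Of the remaining members, Rtp4, a chaperone of G protein-coupled receptors that interferon induces, had 328, 451, 1162 and 927 normalized counts in ethanol libraries 1 to 4, against 467, 478, 584 and 479 in saline libraries 1 to 4. The saline libraries lay in the middle, while the ethanol libraries held both the 2 lowest and the 2 highest values. Ifi27l2a, a small membrane protein gene, had 49.97, 67.2, 209.6 and 139 normalized counts in ethanol libraries 1 to 4, against 83.2, 94.6, 115 and 52.7 in saline libraries 1 to 4, with the same order of ethanol libraries. Trim30a, a ubiquitin ligase of the tripartite motif family with close copies, had 1254, 1317, 1638 and 1129 normalized counts in ethanol libraries 1 to 4, against 1632, 1309.5, 1171 and 1584 in saline libraries 1 to 4. Parp14, a mono-ADP-ribosyl transferase, averaged 732 ± 142 in ethanol and 756 ± 48.1 in saline libraries (SD, n = 4 each), Xaf1 averaged 338 ± 85.9 in ethanol and 288 ± 53.4 in saline libraries and Ifi35 averaged 972 ± 121 in ethanol and 980.4 ± 109 in saline libraries. Cxcl10, the chemokine that recruits T cells, was low and erratic, with 3.26, 11.03, 14.04 and 23.7 normalized counts in ethanol libraries 1 to 4, against 24.04, 0.965, 24.5 and 12.7 in saline libraries 1 to 4. Its fold was 1.02 (95% interval 0.291 to 3.61), and every library held fewer than 25 normalized counts. Without saline library 2 its log2 fold change was -0.81, against 0.04 over all 8 libraries.

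Many of the members moved together from library to library. Over all 561 pairs of tested members the median Pearson r of log2 values across the 8 libraries was 0.39, and 83.1% of the pairs were positive. Over all pairs of the 14428 tested genes the median was -0.002, with 49.8% positive. An r above 0.7 was reached by 16.8% of member pairs and by 3.19% of all pairs. With each group's mean subtracted and both groups pooled, the median over member pairs was 0.41, so co-variation remained with the difference between group means removed. An r within the ethanol or the saline libraries alone was not computed. Restricted to the 26 members whose mean reached 100 normalized counts, the median was 0.49. These values describe 8 libraries and carry no test. All genes measured in a library share its depth, preparation and cell composition, and assigned reads and marker levels differed between libraries.

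Each member was also set against the mean of the other members. The highest r was 0.95, for Ifi27l2a (Spearman's rho 0.95), followed by Rtp4 at 0.95 (rho 0.91) and Bst2 at 0.95 (rho 0.95). Slfn2, Slfn5 and Ifit3b were at 0.91, 0.91 and 0.91. In all, 15 of 34 members had an r above 0.7 and 21 an r above 0.5. The members that did not follow the rest included Trim30a at -0.02, Ifit1 at -0.02, Oas2 at 0.03, Ifih1 at 0.12, Cmpk2 at 0.15 and Rsad2 at 0.16, and Stat2 and Irf9 were at 0.30 and 0.33. The members with and without the response element core in their promoters overlapped in r. The median was 0.45 for the 15 tested members with the core (range -0.02 to 0.95) and 0.81 for the 9 without it (range 0.15 to 0.91). The members also varied more between libraries than genes at large. Their median SD within groups was 0.44 on the log2 scale for the 21 members with means of 100 to 1000, against 0.22 for the 6338 genes in that range, and 0.23 against 0.13 for means of 1000 and above. Counting of reads alone would give a median SD of 0.101 for members against 0.072 for all genes in the first range. In the second range it would give 0.041 against 0.033.

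**Figure D2:**
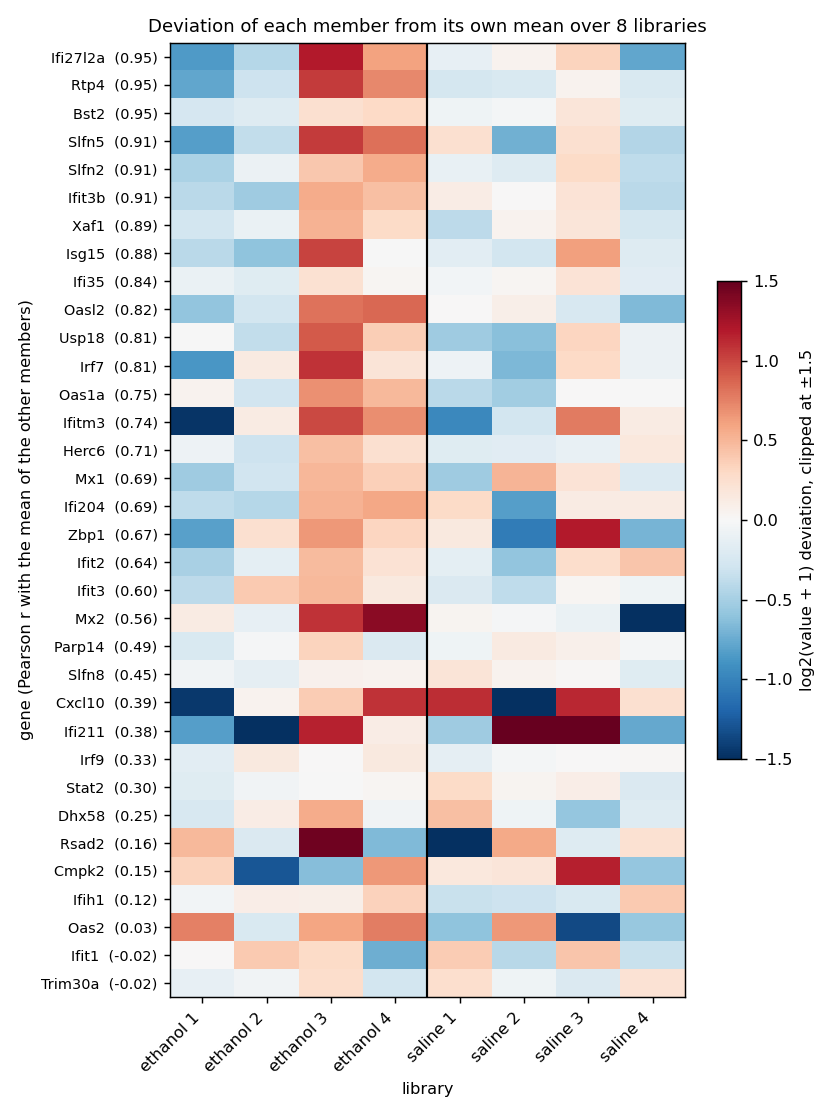
Deviation of log2(value + 1) from the mean of each gene over the 8 libraries, for the 34 tested members, with ethanol libraries left and saline libraries right of the black line. Rows are ordered by the Pearson r with the mean of the other members, given in brackets. The upper rows are high in ethanol libraries 3 and 4 and, less so, in saline library 3, and low in ethanol libraries 1 and 2.

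The libraries could be ordered by the mean deviation of the 34 members. It was -0.34, -0.25, 0.57 and 0.32 on the log2 scale in ethanol libraries 1 to 4, against -0.12, -0.16, 0.22 and -0.24 in saline libraries 1 to 4. In ethanol library 3, 32 of 34 members were above their own mean, and 18 of them had their highest value there. In ethanol library 1, 28 of 34 were below their own mean, and 11 had their lowest value there. The lowest and the highest library were therefore both ethanol libraries. The mean deviation of all genes tested was -0.008, -0.011, 0.056 and -0.038 in ethanol libraries 1 to 4, against -0.001, -0.013, 0.016 and -0.001 in saline libraries 1 to 4, and had an r of 0.50 with that of the members.

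The estimate for ethanol depended on the libraries compared. Within samples 1 and 2, 12 of 34 members had a positive estimate (35.3%, against 49.7% of all genes) and the median log2 fold change was -0.13. Within samples 3 and 4, 31 of 34 were positive (91.2%, against 49.1% of all genes) and the median was 0.35. For 20 members (58.8%, against 23.9% of all genes) the estimate was negative in samples 1 and 2 and positive in samples 3 and 4. Rtp4 had a log2 fold change of -0.29 in samples 1 and 2 and 0.97 in samples 3 and 4, Oasl2 had -0.48 and 1.29, and Ifi27l2a had -0.61 and 1.12. Ifit3, Usp18, Oas1a, Rsad2 and Ifih1 were among the 11 that were positive in both sets. This division was made after the data were seen, and the difference between the sets was not tested. Ethanol libraries 1 and 2 had the lowest mean deviations of the members and ethanol libraries 3 and 4 the highest. The contrast in signs between the sets restates that order in members that moved together, and is no separate result. Without ethanol library 3 the median over the members was -0.01 and 16 of 34 estimates were positive, and in that fit 0 members passed.

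**Figure D3:**
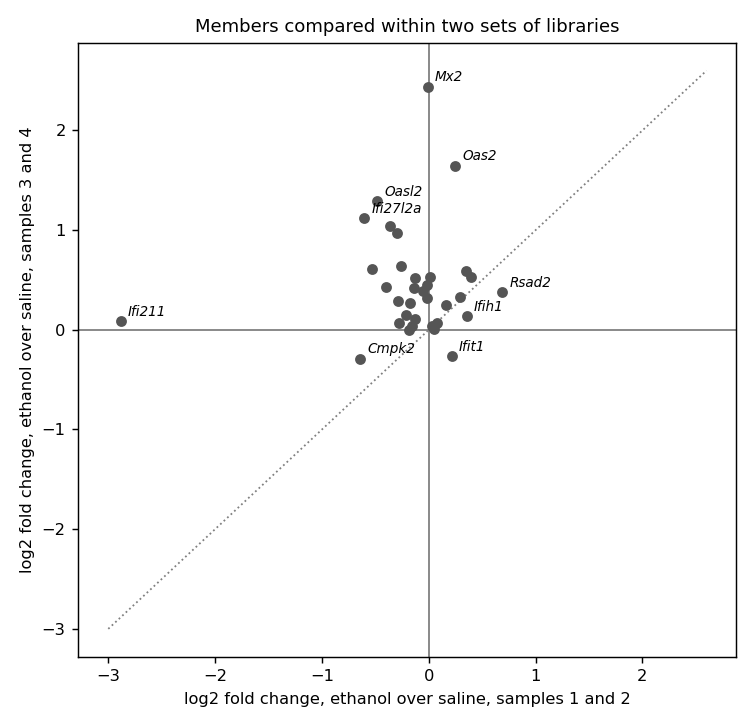
Log2 fold change of each tested member, ethanol over saline, within samples 1 and 2 (horizontal axis) and within samples 3 and 4 (vertical axis), 2 libraries against 2 in each. Each point is a gene and the dotted line marks equal values. The sets were divided after the data were seen. Of the 34 points 31 lie above 0 on the vertical axis and 12 lie right of 0 on the horizontal axis.

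The library names in the labels begin with the numbers 163, 164 and 165, whose meaning the labels do not give. Both libraries named 163, ethanol 3 and saline 3, were above 0 in the mean deviation of the members, at 0.57 and 0.22. All 3 named 165 were below 0, at -0.34 and -0.25 for ethanol 1 and 2 and at -0.16 for saline 2. Of those named 164, ethanol 4 was at 0.32, saline 1 at -0.12 and saline 4 at -0.24. The ethanol library was higher than the saline libraries of the same number in 163 and 164 and lower in 165. With this number as a term in limma, 0 members passed, 5 had an unadjusted p under 0.05, all with positive estimates, and the median log2 fold change was 0.27. Over all genes that fit had 5.34% with an unadjusted p under 0.05.

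Transcripts of the interferons themselves were at the floor of detection. Of 13 ligand genes, among them Ifnb1, Ifng and members of the interferon alpha and lambda families, only Ifnb1 had any reads, 3 in ethanol library 4 and 2 in saline library 3. By counting error alone, a count of 0 leaves an expected count of up to about 3 reads in a library within a 95% limit. The receptor and its kinases were well expressed. Ifnar1 had 2195, 2425, 1896 and 2182 normalized counts in ethanol libraries 1 to 4, against 2259.9, 2054, 2231 and 2264 in saline libraries 1 to 4, a fold of 0.985 (95% interval 0.867 to 1.12). Ifnar2 had 3125, 2842, 3547 and 3137 normalized counts in ethanol libraries 1 to 4, against 2863, 3046, 3389 and 2797 in saline libraries 1 to 4, a fold of 1.05 (95% interval 0.921 to 1.19). The folds were 0.981 (95% interval 0.886 to 1.08) for Jak1 and 1.04 (95% interval 0.923 to 1.18) for Tyk2, and all 8 genes of this list excluded a 1.5-fold change. The interferon gamma receptor genes had folds of 1.01 (95% interval 0.935 to 1.099) for Ifngr1 and 0.966 (95% interval 0.862 to 1.08) for Ifngr2. In this list 0 of 8 genes passed in either direction, and Ifngr2 had the smallest unadjusted p among negative estimates.

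The sensing pathway upstream of interferon production, which includes Ddx58, Mavs, Cgas, Sting1, Tlr7 and Tbk1, gave no gene that passed. Of 16 tested genes 0 passed, 5 estimates were positive and 11 negative, the median was -0.02, and all 16 intervals excluded a 1.5-fold change. Among positive estimates the smallest unadjusted p was that of Tbk1, a kinase that activates Irf3, with a fold of 1.07 (95% interval 0.944 to 1.22). Among negative estimates it was that of Tlr7, the endosomal sensor of single-stranded RNA, with 0.951 (95% interval 0.851 to 1.06). This list did not follow the members across libraries, with a median r of -0.16 with their mean deviation. Of 6 inhibitors of interferon signalling 0 passed, with a median of -0.03. Ptpn6, a phosphatase that dampens receptor signals, had a fold of 1.05 (95% interval 0.951 to 1.15) and the related Ptpn11 a fold of 0.898 (95% interval 0.735 to 1.096).

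Other interferon-induced genes, 51 of which were tested, behaved in part like the members. Of these 0 passed, 30 estimates were positive and 21 negative, and the median log2 fold change was 0.04. Trim34a had the smallest unadjusted p among positive estimates, with 508, 412, 457 and 441 normalized counts in ethanol libraries 1 to 4, against 333, 287, 405 and 458 in saline libraries 1 to 4, a fold of 1.24 (95% interval 0.988 to 1.56). Among negative estimates it was Oas1b, a further oligoadenylate synthetase gene. Oas1b had 18.5, 39.1, 17.05 and 19.6 normalized counts in ethanol libraries 1 to 4, against 42.5, 38.6, 33.6 and 33.6 in saline libraries 1 to 4, a fold of 0.612 (95% interval 0.333 to 1.12). An r above 0.7 with the mean deviation of the members was found for 15 of the 51 genes, against 5.98% of all genes tested. They included Samd9l at 0.85, Ccl12 at 0.85 and Ly6e at 0.81. Ccl12, a monocyte chemoattractant gene, had 1166, 1323, 2266 and 1809 normalized counts in ethanol libraries 1 to 4, against 1196, 1159.96, 1681 and 1671 in saline libraries 1 to 4. Within samples 1 and 2, 18 of the 51 estimates were positive, and within samples 3 and 4, 41 were.

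Genes known as targets of interferon gamma gave a similar picture. Of 16 tested genes 0 passed, with a median log2 fold change of 0.02. Irgm1, an immunity-related GTPase, had 1234, 1292, 1538 and 1594 normalized counts in ethanol libraries 1 to 4, against 1159.5, 1097, 1409.9 and 1156 in saline libraries 1 to 4. Its fold was 1.17 (95% interval 0.996 to 1.38), with an unadjusted limma p of 0.0553. Ifi47, another gene of this GTPase family, had the smallest unadjusted p among negative estimates. It had 10.9, 11.03, 54.2 and 24.7 normalized counts in ethanol libraries 1 to 4, against 44.4, 46.3, 22.4 and 33.6 in saline libraries 1 to 4, a fold of 0.584 (95% interval 0.27 to 1.26). Psmb9, an immunoproteasome subunit, had an r of 0.93 with the mean deviation of the members. The median r of the 16 genes was 0.43.

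The 10 genes most like the members across libraries were not interferon genes by these lists, although interferon lists held larger shares of high r than genes at large. An r above 0.7 was found for 15 of 51 other interferon-induced genes and 5 of 16 interferon gamma targets. Over all genes tested that share was 5.98%. Among 10889 genes outside the set whose mean reached 50 normalized counts, the 10 with the highest r with the mean deviation of the members were Smpdl3a, Hmgb2, Bex3, Park7, Gm2000, Rpl31, 2900093K20Rik, Fen1, Anapc10 and Mpdu1, with r from 0.95 to 0.97 over 8 libraries. None of the 10 belongs to a pathway list used here. Smpdl3a, a phosphodiesterase gene, had 309, 325, 579 and 538 normalized counts in ethanol libraries 1 to 4, against 383, 374, 458 and 379 in saline libraries 1 to 4. Rpl31, a ribosomal protein gene, had 1677, 1869, 2786 and 2391 normalized counts in ethanol libraries 1 to 4, against 1947, 1944, 2576 and 2020.2 in saline libraries 1 to 4. An r above 0.9 was found for 47 of the 10889 genes and an r below -0.9 for 55.

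Ribosomal protein and monocyte transcripts moved with the members. The mean deviation of 83 cytosolic ribosomal protein genes was -0.20, -0.22, 0.18 and 0.13 on the log2 scale in ethanol libraries 1 to 4, against -0.12, -0.08, 0.31 and 0 in saline libraries 1 to 4 (r with the members 0.83). Of the 12 monocyte markers 10 were tested, and their mean deviation was -0.82, -0.27, 1.11 and 1.22 in the ethanol libraries, against -1.02, -1.01, 1.12 and -0.32 in the saline libraries (r 0.87). All 12 monocyte markers had reads in some library, and their summed level was 0.00306% to 0.00793% of normalized counts in ethanol and 0.00366% to 0.00797% in saline libraries. Saline library 1 had both the highest summed monocyte level and the lowest mean deviation of the 10 markers. None of the monocyte markers is a member, and 1 of them, Ms4a4c, is among the other interferon-induced genes. Neutrophil markers, 13 of 15 tested, summed to 0.0695% to 0.122% in ethanol and 0.0721% to 0.150% in saline libraries, and Csf3r, which lay between 7473 and 8676 normalized counts in every library, was a large part of that sum. The mean deviation of the 13 markers had an r of 0.74 with the members. Of the lymphocyte markers Ighm alone had 7219 to 8411 normalized counts in ethanol and 7546 to 8596 in saline libraries, which was nearly all of their summed level of 0.0468% to 0.0532% in ethanol and 0.0473% to 0.0551% in saline libraries, with Cd3e, Cd3d, Trac and Ms4a1 among those at 0 in all 8. Astrocyte markers, 8 of 8 tested, had mean deviations of -1.002, 0.06, 0.49 and 0.37 in the ethanol libraries, against 0.07, -0.31, -0.01 and 0.33 in the saline libraries (r 0.63), and summed to 0.0408% to 0.0589% in ethanol and 0.0444% to 0.0554% in saline libraries. Microglial markers had an r of 0.69 with the members over a narrow range, between -0.054 and 0.052 in all 8 libraries. For the other marker lists r was 0.45 for neurons, 0.41 for dendritic cells, 0.33 for lymphocytes, 0.34 for the oligodendrocyte lineage, 0.03 for endothelial and mural cells and -0.43 for border macrophages. The 8 mitochondrially encoded genes tested had an r of 0.71 with the members, the 975 genes with under 1000 bases of exon 0.63, the 7555 genes with 1000 to 5000 bases 0.73 and the 5136 genes with over 5000 bases -0.47. The part of these transcripts in the co-variation of the members was not tested.

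**Figure D4:**
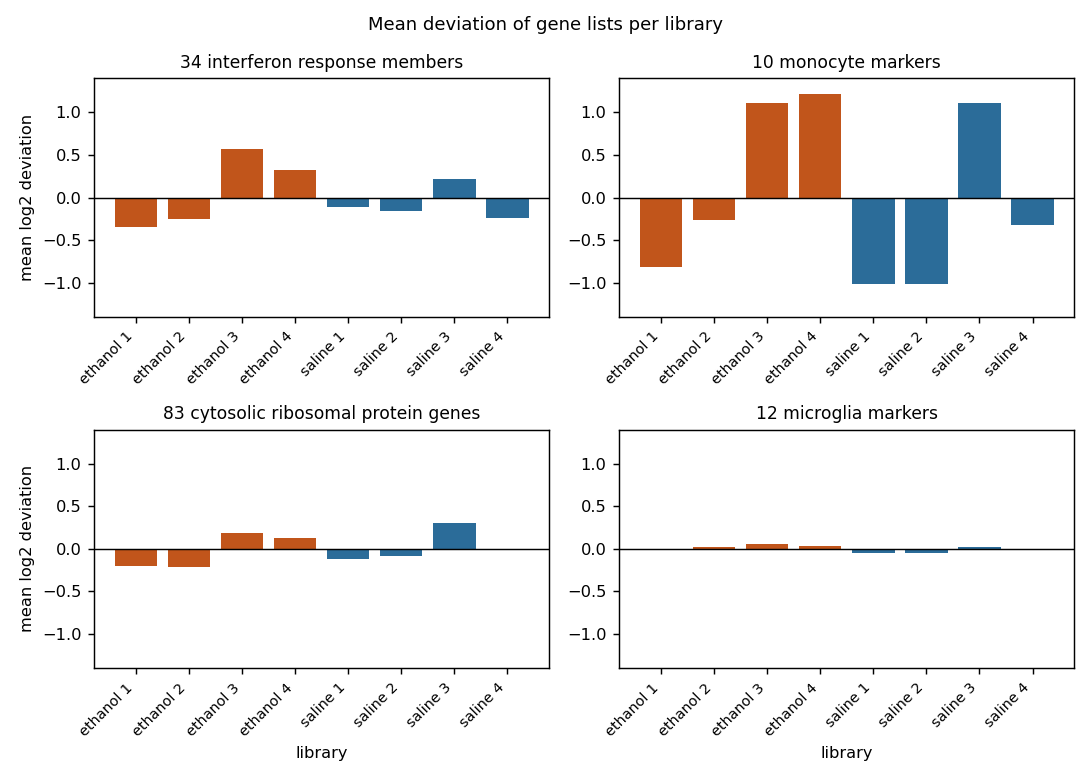
Mean deviation of log2(value + 1) from the mean of each gene over 8 libraries, for the 34 tested members, 10 monocyte markers, 83 cytosolic ribosomal protein genes and 12 microglial markers. Bars are libraries, ethanol at the left and saline at the right. Ethanol libraries 3 and 4 and saline library 3 are above 0 in every panel. Microglial markers lie between -0.054 and 0.052, with ethanol library 2 also above 0.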

How the data were processed

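RNA was measured in sorted microglia from 4 ethanol and 4 saline samples. Per the labels' protocols, 500 pg of total RNA was amplified with a SMARTer Ultra Low Input kit, 150 pg of cDNA went into NexteraXT libraries, and 150 nt paired ends were read on a NovaSeq X. Per the submitters' processing notes, the build was GRCm39, and the tools named were STAR 2.7.9a, featureCounts 2.0.1 from Subread, DESeq2 in R 4.2.2, bcl2fastq 2.19.1 and Salmon 1.5.2. Which annotation was counted is not given in the sources used here. Strand is not kept by NexteraXT, so a gene and an antisense neighbour cannot be told apart.

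The authors deposited 1 table of signal values, which its name calls DESeq2-normalized counts. Each value divided by the smallest non-zero value of its library was whole within 1e-06 for 100% of non-zero values, so reads were recovered, and libraries held 14271351 to 17231301. Values were tested as log2(value + 1) in limma 3.58.1 (R 4.3.3) with an intensity trend, on 14428 genes with a mean of at least 10, two-sided, Benjamini-Hochberg adjusted over all of them. Fold changes on this scale understate changes of low genes. The labels name no molecular identifiers, so counting limits cover counting error only.

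The members, lists and rules were chosen with earlier results of these data known. Values in every library are given for the member with the highest mean in each role, the 3 with the smallest p in each direction and the 3 with the largest spread, and for others. Of each pathway list the positive and the negative estimate with the smallest unadjusted p were named, except where a gene is not reported here, with further genes chosen after their values were seen. Each result was recomputed with pseudocounts of 0.5 and 5, with a minimum mean of 50 or none, with quantile or TMM scaling, with edgeR 4.0.16 and DESeq2 1.42.0 on recovered reads, and without each library. Further fits had a replicate block (the sample number), a term for the library-name number or a term for samples 1 and 2 against 3 and 4, or used one of those sets alone. Exon lengths by symbol came from GENCODE M21, a GRCm38 annotation, and promoters from RefSeq, both older than the table's build. The length classes and ribosomal protein genes were added after seeing the data.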

Additional observations from a re-analysis of the deposited data

Results flagged for a closer look

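In 71 groups of 4 libraries with any spread, 5 had a library that stood apart by Dixon's criterion, where chance gives about 1 in 20. Ifih1 was 570.5 normalized counts in saline library 4, against 344 to 370.1 in the other saline libraries. Isg15 was 270.1 in saline library 3, against 145 to 157. Rtp4 was 584 in saline library 3, against 467 to 479. Mx2 was 8.18 in saline library 4, against 42.8 to 47.2. Ifi44 was 2.01 in ethanol library 2 and 0 in the other ethanol libraries, which is 2 reads.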

How the results depend on the processing

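The counts of called members and of called genes were 0 under all 21 alternatives, and the smallest adjusted p of a member was 0.894. The median log2 fold change of the members was positive under 19 alternatives and negative under 2. It was -0.13 within samples 1 and 2 only, where 12 members were positive, and leaving out one library gave medians of -0.014 (without ethanol library 3) to 0.303 (without ethanol library 1) and 16 (without ethanol library 3) to 28 positive members. The median r over member pairs was 0.28 to 0.45 when one library was left out, lowest without ethanol library 3. Same-numbered samples had correlations of deviations from 0.01 to 0.08, and differently numbered samples from -0.105 to 0.137. These values do not settle whether the sample number pairs the libraries. With the replicate block 0 members passed and the median log2 fold change was 0.16, the same by design as without it. Low counts limit precision, and of the 8 tested members with means under 100 normalized counts the interval of 1 excluded a 2-fold change.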
